A study of Homo sapiens with 14 samples.

Results

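The genes described here are 32 genes of homologous recombination and of the Fanconi anaemia pathway, taken as a fixed list of symbols and looked up in a table of 25952 genes. All 32 were found by symbol, and all 32 passed the filter on low counts. Their RNA was sequenced in NT2, an established line of human embryonal carcinoma cells able to differentiate in culture. The 14 libraries form 7 groups of 2: untreated cells at day 0, cells after 5, 10 and 21 days of all-trans retinoic acid (RA), and cells after 5, 10 and 21 days of bone morphogenetic protein 2 (BMP2). RA was given at a final 10 µM from a stock in DMSO to obtain neurons, and BMP2 was given to obtain muscle cells. A BMP2 dose of 30 ng/ml was tried before a dose of 40 ng/ml, and the labels do not give the dose of each library. All groups were grown in the same serum-containing medium. The labels mention a DMSO control, but the only controls analysed here are the untreated day 0 cells, so days in culture and treatment cannot be told apart in any comparison with day 0. The labels do not say that the 2 libraries of a group came from separate cultures, so a p-value here covers no more than the spread between such libraries, which may be technical.

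Homologous recombination repairs a break through both DNA strands by copying the intact sister chromatid, and it is used mainly in S and G2 phase. The Fanconi pathway acts when the strands are crosslinked to each other: a core complex with its ubiquitin-conjugating enzyme UBE2T marks the FANCD2 and FANCI pair, nucleases unhook the crosslink, and the resulting break is passed to recombination. BRCA1, BRCA2 and PALB2 are best known as breast and ovarian cancer genes, and loss of Fanconi genes causes bone marrow failure. Many of these genes are known to be transcribed mostly in dividing cells, with E2F factors acting at their promoters.

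The 5 promoters below are examples chosen after their values were seen: BLM, RAD54L and FANCG were lower at day 21 of both treatments, and RAD50 and FAN1 passed the test in no comparison with day 0. Each line gives the 150 bases before a RefSeq transcription start on build GRCh38.p14, 5′ to 3′ on the gene's strand. Capitals mark E2F-like letters (TTCCCGC, or GCGGGAA where it lies on the other strand) and CCAAT boxes (CCAAT, or ATTGG on the other strand). The stretches are BLM at chr15:90717196-90717345 (plus strand), RAD54L at chr1:46247538-46247687 (plus), FANCG at chr9:35079943-35080092 (minus), RAD50 at chr5:132556827-132556976 (plus) and FAN1 at chr15:30903702-30903851 (plus). RAD54L and FAN1 each have 2 listed starts, of which 1 is shown.
BLM: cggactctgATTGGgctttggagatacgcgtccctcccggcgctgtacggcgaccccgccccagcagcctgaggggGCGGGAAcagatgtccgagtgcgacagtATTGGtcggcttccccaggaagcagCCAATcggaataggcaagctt
RAD54L: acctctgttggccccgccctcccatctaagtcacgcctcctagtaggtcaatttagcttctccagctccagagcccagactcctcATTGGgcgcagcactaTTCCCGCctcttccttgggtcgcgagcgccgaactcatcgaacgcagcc
FANCG: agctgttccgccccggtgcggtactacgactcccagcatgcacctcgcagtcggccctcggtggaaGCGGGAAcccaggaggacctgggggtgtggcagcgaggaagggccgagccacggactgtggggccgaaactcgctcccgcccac
RAD50: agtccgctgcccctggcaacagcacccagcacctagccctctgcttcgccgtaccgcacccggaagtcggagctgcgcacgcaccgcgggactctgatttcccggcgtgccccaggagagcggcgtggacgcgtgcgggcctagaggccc
FAN1: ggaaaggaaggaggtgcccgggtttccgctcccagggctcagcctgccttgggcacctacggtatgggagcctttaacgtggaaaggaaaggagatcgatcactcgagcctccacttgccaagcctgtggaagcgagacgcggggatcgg
BLM, a helicase that unwinds recombination intermediates, has 1 E2F-like match and 3 CCAAT boxes in this stretch. RAD54L has 1 E2F-like match and 1 CCAAT box, FANCG has an E2F-like match alone, and the RAD50 and FAN1 stretches hold none of the letters searched. Other members do not follow this split. The E2F-like matches of EXO1 and XRCC2, which were lower at day 21 of both treatments, lie after the start, and that of FANCD2 spans it. RAD51D, called in no comparison with day 0, has a match 60 bases before one of its starts.

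Over all members, windows from 250 bases before to 50 bases after a start were searched on both strands for TTCCCGC or TTCGCGC or TTGCCGC or TTGGCGC (E2F-like), TTTGAA (like the cell cycle homology region) and CCAAT. Where TTGGCGC lies on the other strand and a T follows, it overlaps a CCAAT box. Windows were listed for 29 of the 32 members, and NBN, FANCI and RAD54B had none. An E2F-like match was present for 17 of the 29 members (58.6%), against 15.3% of 27305 genes with a window and 22.7% of the 13529 of these that were tested. CCAAT was present for 11 members (37.9%), against 39.7% and 42.2% of the same sets. TTTGAA was present for 3 members, BRIP1, FANCC and UBE2T (10.3%), against 18.2% and 14.8%. Among the 18 members with a window that were lower at day 21 of both treatments, 11 had an E2F-like match (61.1%) and 9 a CCAAT. Among the 7 with a window that were called lower in no comparison with day 0, 3 had an E2F-like match (42.9%; FANCF, RAD51D and RAD52) and 1 a CCAAT (14.3%; FANCF). These matches are letters in a window and show neither binding nor regulation.

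Library totals ran from 45773278 to 75754396 counts. Levels are CPM, counts scaled to the library total after edgeR's TMM adjustment (factors of 0.918 to 1.15). They can be compared between libraries for a gene but not between genes of different length. Fold changes are edgeR quasi-likelihood estimates on the log2 scale with the standard error (SE) implied by the test. A gene is called higher or lower at a Benjamini-Hochberg adjusted p under 0.05 over all 19142 genes tested. The embryonal carcinoma markers fell: all 7 (POU5F1 and NANOG among them) were called lower at day 21 of both treatments. Of all genes tested, 21.1% were called lower at RA day 21 and 22.1% at BMP2 day 21. The summed level of these 7 markers was 6392 to 7283 CPM untreated, and 1674 to 2515, 610.5 to 879.9 and 175.6 to 180.8 at RA days 5, 10 and 21. At the same BMP2 days it was 784.2 to 909.1, 194.9 to 966.8 and 170.5 to 176.2. DPPA4 alone read 1008 and 1072 CPM untreated, 136.8 in both RA day 21 libraries, and 151.7 and 140.4 at BMP2 day 21. Of 6 neuronal markers 2, 5 and 3 were called higher at RA days 5, 10 and 21 and 1, 1 and 3 at the same BMP2 days. With RA, 5.59%, 12.9% and 23.4% of all genes tested were called higher at these days. With BMP2 it was 15.9%, 19.8% and 25.0%. These shares also apply to the other marker lists below. The neuronal shares at BMP2 days 5 and 10 (16.7% each) were near those of all genes. The neuronal markers summed to 85.88 to 116.9 CPM untreated, 219.7 to 275.9, 709.9 to 1059 and 556.8 to 590 with RA, and 133.4 to 137, 126.5 to 129.2 and 210.2 to 238.3 with BMP2. At RA day 21 NEFM alone read 358.5 and 359.2 CPM, MAP2 133.4 and 171.2, and SNAP25 32.47 and 29.99. There DCX read 6.544 and 4.608 against 21.05 and 5.26 untreated, and STMN2 0.478 and 0.162 against 0.122 and 0.251. SYT1 read 25.49 and 24.83 at RA day 21, 31.72 and 17.83 untreated, and 84.48 and 49.48 at BMP2 day 21. Of 6 smooth muscle markers 5, 4 and 3 were called higher at the 3 BMP2 days and 0, 1 and 1 at the RA days (16.7% at RA days 10 and 21, against 12.9% and 23.4% of all genes). They summed to 35.31 to 90.34 CPM untreated, 560.9 to 1283, 642.5 to 1263 and 340.6 to 490.6 with BMP2, and 40.61 to 258.6, 109.6 to 294 and 83.7 to 122 with RA. Markers of other cell types also rose. Of 6 fibroblast and matrix genes, such as COL1A1 and DCN, 2, 4 and 6 were called higher at the RA days and 5, 6 and 6 at the BMP2 days. They summed to 41.98 to 46.08 CPM untreated, 116.1 to 451.4, 648.2 to 1592 and 5647 to 5710 with RA, and 1927 to 3616, 1818 to 14320 and 32460 to 33610 with BMP2. COL3A1 alone read 5341 and 5369 CPM at RA day 21 and 21950 and 19560 at BMP2 day 21. Of 5 trophoblast and amnion markers 3, 3 and 2 were called higher with RA and 3, 4 and 3 with BMP2. Their sums were 13.99 to 16.16 CPM untreated, 64.23 to 191.6, 58.95 to 69.75 and 24.86 to 26.57 with RA, and 331.8 to 398.2, 416.5 to 453 and 108.4 to 201.5 with BMP2. The part of these cell types in the members' values was not tested. Of 5 skeletal muscle markers 3 were tested. With BMP2, 1, 0 and 0 were called higher and 0, 0 and 1 lower. With RA, 0, 0 and 0 were called higher and 0, 1 and 1 lower. The called rise was that of ACTA1, which read 0.97 and 1.75 CPM untreated and 18.3 and 9.46 at BMP2 day 5. All 5 summed to 8.92 to 9.207 CPM untreated and 14.26 to 21.84, 9.634 to 12.58 and 3.777 to 3.842 with BMP2. With RA they summed to 8.154 to 19.85, 8.852 to 12.49 and 2.775 to 3.078. MYOD1, which defines skeletal muscle, had no count in any BMP2 library, and MYOG had counts in 1 of the 6 BMP2 libraries. In bulk RNA, fewer cells of a type and less RNA per cell cannot be told apart.

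Taken as a group, the 32 genes were at lower levels late in both courses. Their summed level, as a percent of the untreated mean, was 93.5 and 104 in the 2 libraries of RA day 5, 63.8 and 79.3 at RA day 10, and 42.9 and 39.9 at RA day 21. With BMP2 it was 67.8 and 58.7 at day 5, 50.9 and 38.3 at day 10, then 36.1 and 33.2 at day 21. Both RA day 5 libraries thus lay near the untreated level (101 and 99.3), and every later RA library and every BMP2 library lay below it.

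Over RA, 1 member was called higher (3.12%) and 1 lower (3.12%) at day 5, where 5.59% of all genes tested were called higher and 2.72% lower. At RA day 10, 1 was called higher (3.12%) and 4 lower (12.5%), against 12.9% and 11.1% of all genes. At RA day 21, 20 were called lower (62.5%) and 0 higher (DESeq2 called 23 and 0; 23 had an unadjusted p under 0.05 in edgeR), against 21.1% lower and 23.4% higher of all genes. The members' median log2 fold changes at the 3 times were 0.03, -0.39 and -1.04, and those of all genes tested -0.002, 0.06 and 0.10. The day 5 shares and the day 10 share of lower calls were thus near those of all genes. The day 10 share of higher calls was below that of all genes, and the day 21 share of lower calls was above it. Neither RA day 5 call held in all 14 fits that each left out 1 library, and the count there was 0 without RA day 5 replicate 1 or without either untreated library. Fits of only the 4 libraries compared called 5 members at RA day 5 and 9 at RA day 10. Of the 5 calls at RA day 10 that of PALB2 alone held in all 14; the count was 1 without RA day 10 replicate 1 or either untreated library and 9 without either BMP2 day 10 library. Without 1 library the RA day 21 count was between 15 and 22, and 15 of its 20 calls held in all 14 fits.

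With BMP2, 10 members were called lower at day 5 (31.2%), where 13.4% of all genes tested were lower and 15.9% higher. At BMP2 day 10, 20 were called lower (62.5%), against 16.4% lower and 19.8% higher of all genes. A fit of only the 4 libraries of that comparison, whose 2 BMP2 libraries stood apart from each other, called 3 members. At BMP2 day 21, 24 were called lower (75%), against 22.1% lower and 25.0% higher of all genes. No member was called higher at any BMP2 time; at an unadjusted p under 0.05 the members that changed numbered 14, 21 and 26. DESeq2 also called 0 higher, and 13, 20 and 25 lower. The medians were -0.50, -1.09 and -1.57 for members and 0, 0.05 and 0.04 for all genes. The BMP2 day 5 count rested on few libraries: it was 3 without BMP2 day 5 replicate 2 or without either untreated library, and only the calls of BLM and XRCC3 held in every fit without 1 library.

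**Figure D1:**
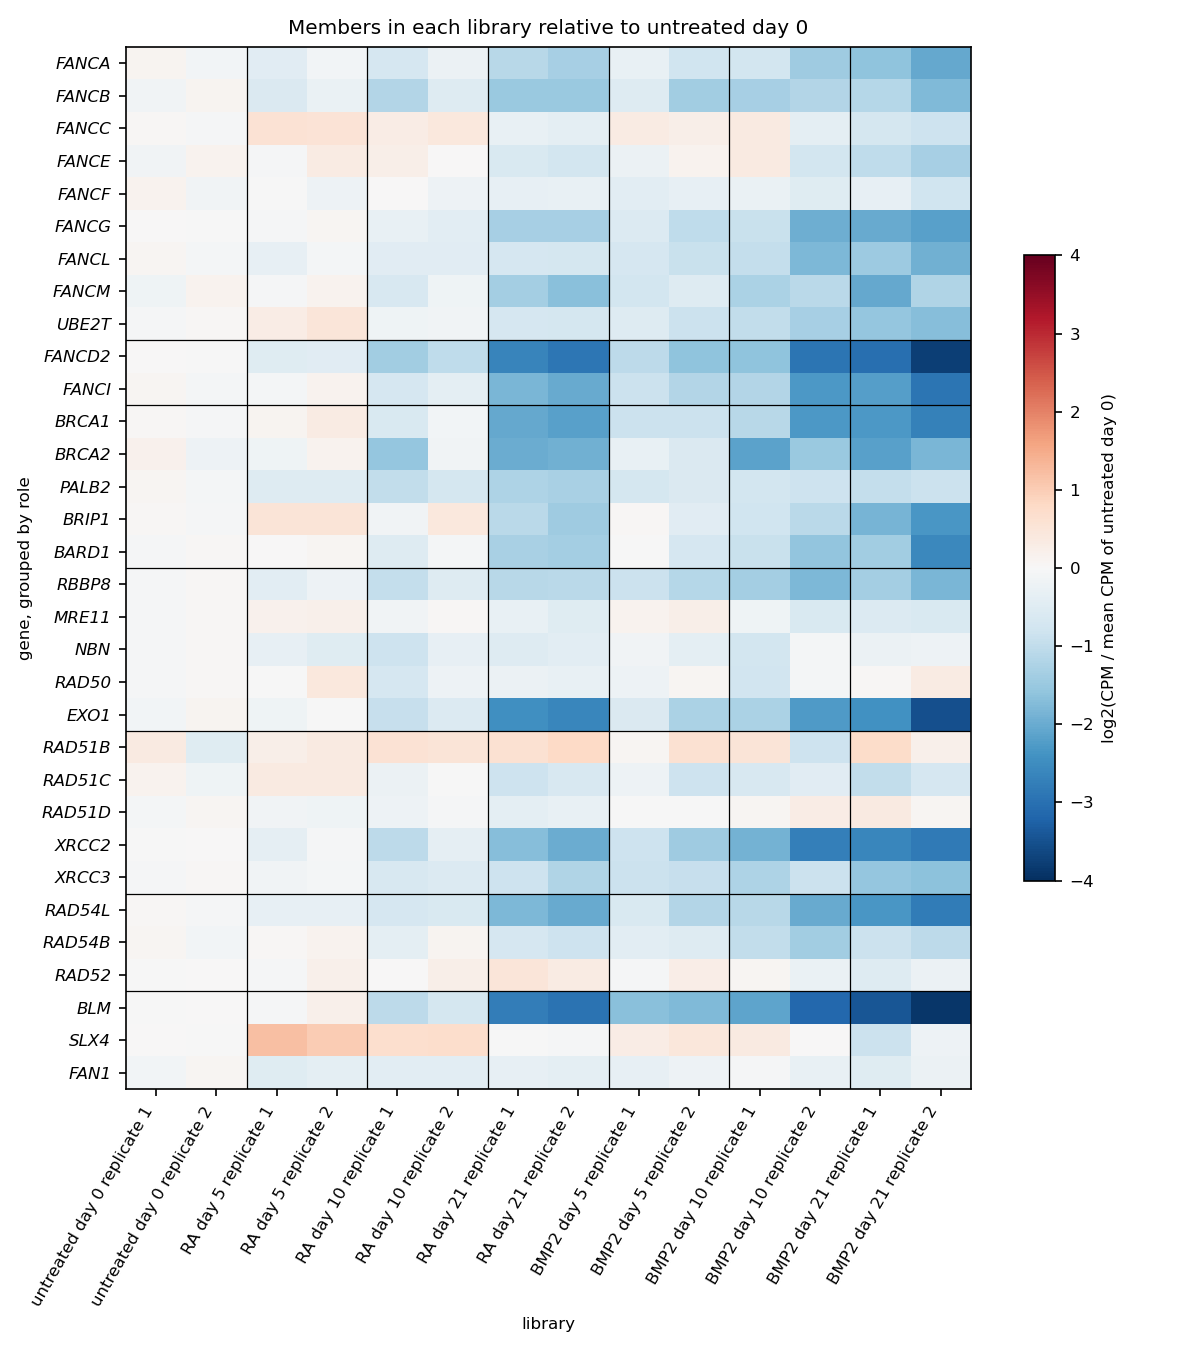
Level of each of the 32 members (rows, grouped by role) in each of the 14 libraries (columns), as log2 of its CPM over the mean CPM of the 2 untreated libraries; blue is lower and red higher. The blue deepens towards day 21 for FANCD2, FANCI, EXO1, XRCC2, RAD54L and BLM, and SLX4 is red at RA days 5 and 10.

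Proliferation markers moved in the same libraries. All 20 of them, such as MKI67, the DNA helicase subunits MCM2 to MCM7 and the mitotic cyclin CCNB1, were lower at BMP2 day 21, and 17 were lower at RA day 21. Their summed level, as a percent of the untreated mean, was 91.4 and 98.9 at RA day 5, 60.4 and 68.1 at RA day 10, and 26.0 and 24.2 at RA day 21. With BMP2 it was 57.8 and 41.9 at day 5, 43.5 and 20.7 at day 10, then 21.0 and 13.5 at day 21. The median log2 fold change of the 20 markers was -1.91 at RA day 21 and -2.43 at BMP2 day 21, against -1.04 and -1.57 for the 32 members. The part of proliferation in the members' fall was not tested.

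**Figure D2:**
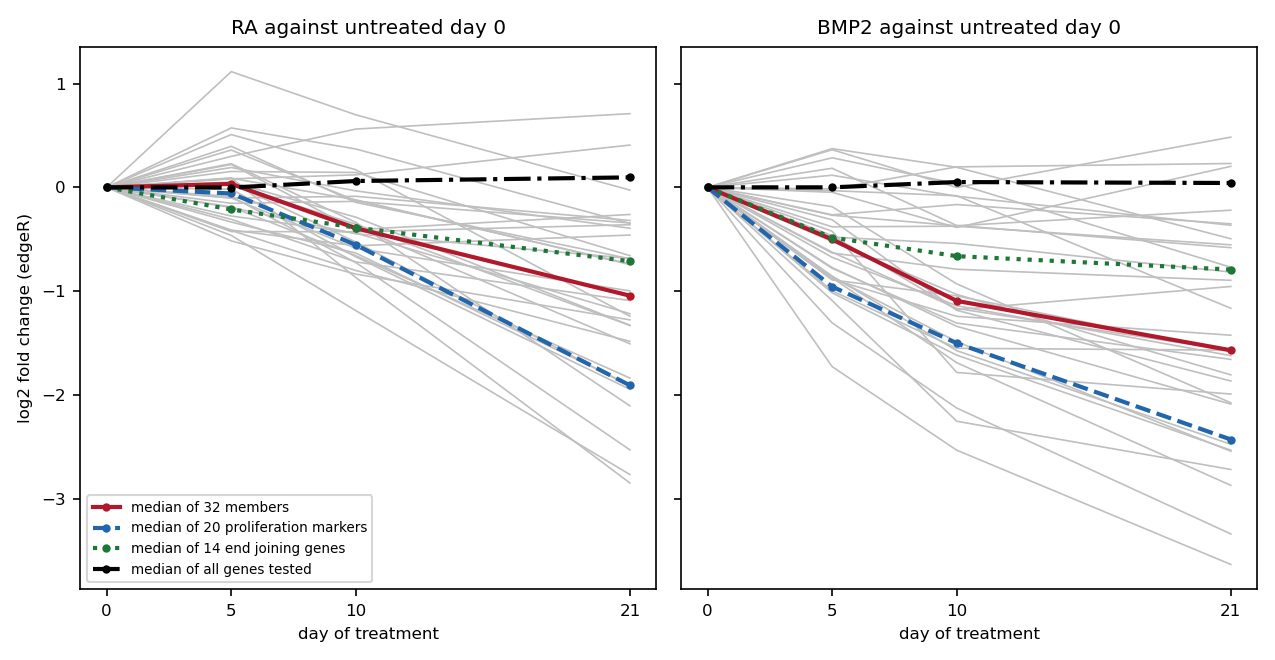
Log2 fold change against untreated day 0 (vertical axis) by day of treatment (horizontal axis) for RA (left) and BMP2 (right); thin grey lines are the 32 members and thick lines the medians of members, 20 proliferation markers, 14 end joining genes and all genes tested. The member median reaches -1.04 with RA and -1.57 with BMP2 at day 21, the proliferation median lies below it and the median of all genes stays near 0.

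The core complex and UBE2T, which together attach ubiquitin to FANCD2 and FANCI, had lower calls at RA day 21 and at all 3 BMP2 days. Of these 9 genes, 0, 0 and 5 were called lower at RA days 5, 10 and 21, where 2.72%, 11.1% and 21.1% of all genes tested were. At the same BMP2 days 2, 6 and 8 were called lower, against 13.4%, 16.4% and 22.1% of all genes. The group's median log2 fold change was 0.02 at RA day 5, -0.36 at RA day 10 and -0.69 at RA day 21. FANCA, a core subunit and the gene most often mutated in Fanconi anaemia, read 46.1 and 40.3 CPM untreated, 20.04 and 17.1 at RA day 21 and 14.1 and 10.6 at BMP2 day 21. The groups did not overlap, and its log2 fold changes were -1.22 (SE 0.29, adjusted p = 0.00731, edgeR) and -1.81 (SE 0.30, adjusted p = 0.000889, edgeR). The RA day 21 call of FANCA ended without RA day 21 replicate 2. FANCG, another core subunit, changed by -1.33 (SE 0.29) at RA day 21 and -2.09 (SE 0.30) at BMP2 day 21, and both calls held in every fit without 1 library. FANCB and FANCM, the latter a DNA translocase that anchors the complex, were likewise lower at RA day 21 (-1.48 and -1.51) and at BMP2 day 21 (-1.43 and -1.57). FANCB lost its BMP2 day 21 call without BMP2 day 21 replicate 2.

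UBE2T read 47.7 and 50.9 CPM untreated, 61.0 and 68.7 at RA day 5, 44.2 and 45.0 at RA day 10, and 31.1 and 30.1 at RA day 21. In the BMP2 libraries it stood at 34.6 and 27.3 at day 5, 24.9 and 19.8 at day 10, then 16.8 and 15.3 at day 21. Every BMP2 library was below both untreated libraries, whereas both RA day 5 libraries were above them. Its fold change against day 0 was 0.40 (SE 0.17, adjusted p = 0.18, edgeR) at RA day 5, -0.69 (SE 0.17, adjusted p = 0.00836) at RA day 21 and -1.62 (SE 0.17, adjusted p = 0.000126) at BMP2 day 21. The RA day 21 call ended without either RA day 21 library and without untreated replicate 2. FANCL, the ubiquitin ligase of the core, was lower with BMP2 at all 3 times (-0.78, -1.31 and -1.66) and was at -0.68 (SE 0.26, adjusted p = 0.0572) at RA day 21. Its BMP2 day 5 call ended in all but 2 of the 14 fits without 1 library.

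The other core subunits were called in at most 1 comparison with day 0. FANCC and FANCE were called lower at BMP2 day 21 alone, by -0.77 (SE 0.22) and -1.17 (SE 0.36), and each call ended without BMP2 day 21 replicate 2; the FANCC call also ended without untreated replicate 1, and the FANCE call without BMP2 day 21 replicate 1 or untreated replicate 2. FANCF, the adaptor subunit, passed the test in no comparison with day 0, and its estimates ran from -0.55 at BMP2 day 21 (adjusted p = 0.0549, edgeR) to -0.09 at RA day 10.

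FANCD2 and FANCI, the pair that receives ubiquitin and clamps onto DNA at the crosslink, were among the members with the largest changes. FANCD2 read 192 and 189 CPM untreated, 136 and 140 at RA day 5, 72.1 and 95.1 at RA day 10, and 30.3 and 25.6 at RA day 21. The BMP2 libraries read 91.4 and 62.6 at day 5, 61.8 and 25.3 at day 10, then 23.5 and 14.1 at day 21. All 12 treated libraries were below both untreated ones. The fold change was -2.77 (SE 0.40, adjusted p = 0.000565, edgeR) at RA day 21 and -3.34 (SE 0.41, adjusted p = 0.000229) at BMP2 day 21, and these 2 calls held without any 1 library. The calls at RA day 10 (-1.19, adjusted p = 0.0473) and BMP2 day 5 (-1.31, adjusted p = 0.0287) did not: they ended in 11 and 6 of the 14 fits, among them those without either untreated library. FANCI changed by -1.92 (SE 0.34) at RA day 21 and -2.53 (SE 0.35) at BMP2 day 21, and its levels were 65.2 to 75.3 and 34.7 to 57.0 CPM against 253 to 277 untreated. FANCD2 shares 27.3% of its span with FANCD2OS, whose group means were at most 0.21 CPM.

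All 5 genes of the BRCA group were called lower at RA day 21, BMP2 day 10 and BMP2 day 21. In these comparisons 21.1%, 16.4% and 22.1% of all genes tested were called lower. BRCA1, which with its partner BARD1 forms a ubiquitin ligase that favours recombination, read 86.4 and 80.9 CPM untreated, 91.1 and 105 at RA day 5, 55.2 and 77.2 at RA day 10, and 20.4 and 18.4 at RA day 21. Under BMP2 it was at 46.4 and 46.1 at day 5, 39.1 and 17.1 at day 10, then 17.2 and 12.9 at day 21. At RA day 5 both libraries were above both untreated libraries, with an estimate of 0.23 that did not pass the test (adjusted p = 0.721, edgeR); at day 21 the fold change was -2.11 (SE 0.34, adjusted p = 0.000929) with RA and -2.48 (SE 0.34, adjusted p = 0.000377) with BMP2. BARD1 was at -1.33 (SE 0.37) and -1.87 (SE 0.38) at the same times, and its RA day 21 call ended without either RA day 21 library and without untreated replicate 2. BRIP1, a helicase that binds BRCA1, was at -1.24 (SE 0.25) and -2.08 (SE 0.26). The BMP2 day 10 calls of BARD1 and BRIP1 ended without either untreated library and without BMP2 day 10 replicate 2.

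BRCA2, a mediator of strand exchange, read 64.7 and 49.9 CPM untreated, 19.8 and 52.3 at RA day 10, 14.5 and 15.2 at RA day 21, and 12.8 and 16.0 at BMP2 day 21. The RA day 10 libraries differed from each other by 1.40 on the log2 scale, more than for any other member in that group, and 27 of the 32 members were higher in replicate 2 of that group. Over 10462 genes, those with more than 5000 coding bases also read lower in RA day 10 replicate 1 (median log2 difference from replicate 2 of -0.23 for 558 genes) than those with fewer than 1000 (0.12 for 2909 genes); the part of transcript length in the BRCA2 difference was not tested. At day 21 BRCA2 was lower by -1.95 (SE 0.40, adjusted p = 0.00348, edgeR) with RA and -1.99 (SE 0.40, adjusted p = 0.00278) with BMP2.

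PALB2, the bridge between BRCA1 and BRCA2, was the only member called lower in all 6 comparisons with day 0. It read 93.0 and 84.2 CPM untreated and 61.6 and 62.2, 45.1 and 54.1, and 37.3 and 35.9 at RA days 5, 10 and 21. Its BMP2 values were 54.9 and 59.3, 52.8 and 49.7, and 46.2 and 49.0. All 12 treated libraries lay below both untreated libraries, and the RA values ran lower by day 21 than the BMP2 values. The fold changes were -0.52, -0.84 and -1.28 with RA and -0.63, -0.79 and -0.90 with BMP2, with SE of 0.14 each. At day 21 the difference between RA and BMP2 did not pass the test (-0.38, SE 0.14, adjusted p = 0.0933). PALB2 was also lower at RA day 21 than at RA day 5 (-0.76, SE 0.14, adjusted p = 0.00401), and its difference between BMP2 days 21 and 5 was not called. The RA day 5 call (adjusted p = 0.0443, edgeR) ended in 12 of the 14 fits without 1 library, with estimates of -0.59 to -0.44, and the BMP2 day 5 call ended without BMP2 day 5 replicate 1 or untreated replicate 1.

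**Figure D3:**
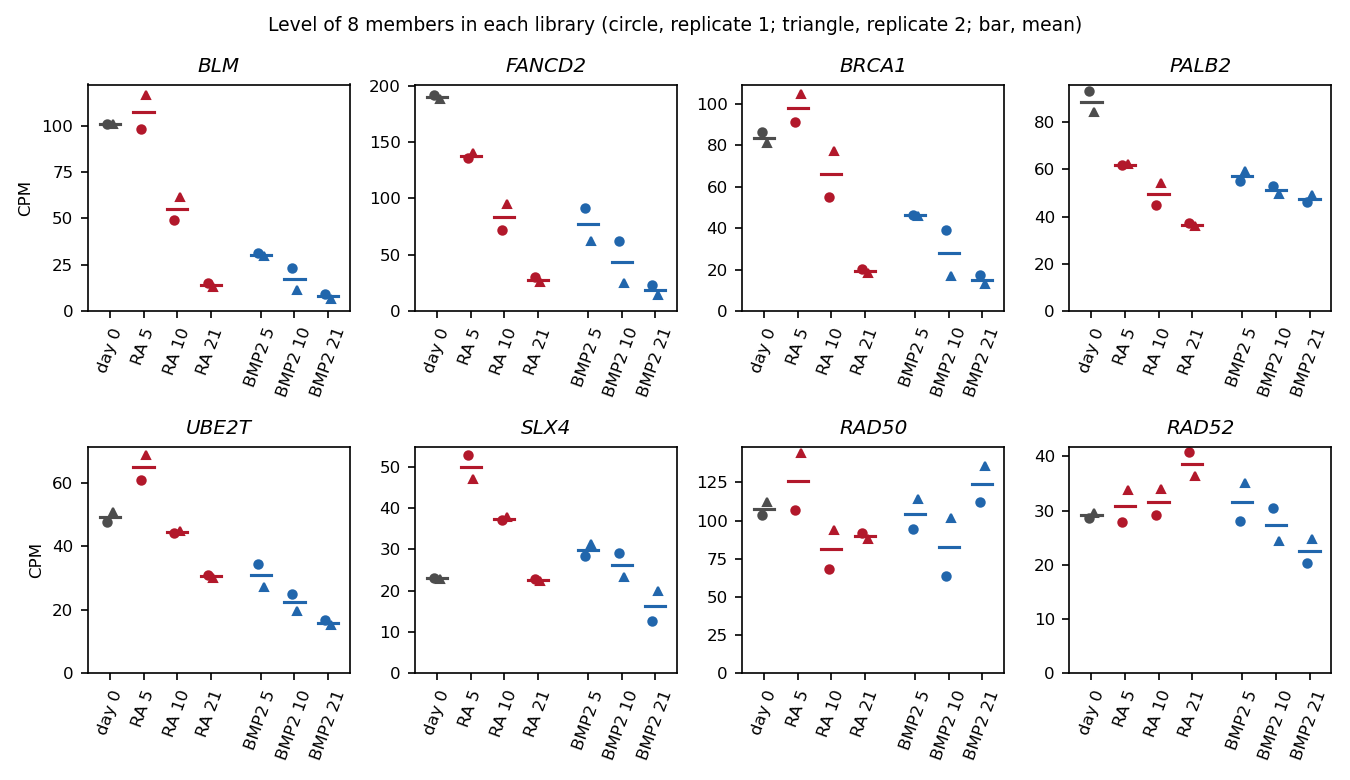
CPM (vertical axis, from 0) of 8 members in each library of the 7 groups (horizontal axis); circles are replicate 1, triangles replicate 2 and bars the group mean. BLM, FANCD2 and BRCA1 have their lowest means at BMP2 day 21, SLX4 peaks at RA day 5 and RAD50 shows no steady course.

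The end resection genes, which trim a break to expose single-stranded DNA, divided in their comparisons with day 0. EXO1 and RBBP8 had more lower calls than MRE11, RAD50 and NBN. EXO1, the long-range nuclease, read 94.4 and 110 CPM untreated, 91.3 and 101 at RA day 5, 18.8 and 16.6 at RA day 21, and 18.97 and 8.92 at BMP2 day 21. Its fold changes of -2.53 (SE 0.41, adjusted p = 0.000976, edgeR) and -2.87 (SE 0.42, adjusted p = 0.000477) at day 21 were among the largest of the list. RBBP8, which encodes CtIP and starts resection, was called lower at every time but RA day 5, with -1.09 (SE 0.23) at RA day 21 and -1.57 (SE 0.23) at BMP2 day 21; its RA day 10 call (-0.72, adjusted p = 0.0439) ended in 11 of the 14 fits without 1 library, and its BMP2 day 5 call without BMP2 day 5 replicate 2 or untreated replicate 2.

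The MRN complex, which senses and tethers the broken ends, had 1 lower call among its 3 genes over the 6 comparisons with day 0. Between 2.72% and 22.1% of all genes tested were called lower in these comparisons. RAD50 read 103 and 112 CPM untreated, 107 and 144 at RA day 5, 68.3 and 94.0 at RA day 10, 91.8 and 88.1 at RA day 21, 94.6 and 114 at BMP2 day 5, 63.5 and 101 at BMP2 day 10, and 112 and 136 at BMP2 day 21. No comparison with day 0 passed the test for RAD50, with estimates from -0.41 to 0.22. NBN was at -0.56 to -0.22 with none called. Against day 0, MRE11, the nuclease of the complex, was called lower at BMP2 day 21 alone (-0.58, SE 0.17, adjusted p = 0.0167, edgeR). That call ended without either BMP2 day 21 library and without either untreated library. MRE11 was also called lower at day 21 than at day 5 with RA (-0.59) and with BMP2 (-0.77). Each of these calls ended in 4 of the 14 fits without 1 library. A p that misses the threshold does not show that these genes stayed constant.

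The group of RAD51B, RAD51C, RAD51D, XRCC2 and XRCC3, which assist in the search for a homologous strand, also divided. XRCC2 read 68.8 and 70.1 CPM untreated, 54.1 and 67.8 at RA day 5, 33.8 and 54.2 at RA day 10, and 21.3 and 17.6 at RA day 21. With BMP2 it read 39.4 and 25.8 at day 5, 18.6 and 10.5 at day 10, then 11.4 and 9.74 at day 21. It was lower by -1.84 (SE 0.33, adjusted p = 0.00156, edgeR) at RA day 21 and by -2.72 (SE 0.34, adjusted p = 0.000229) at BMP2 day 21. XRCC3 was lower at every time but RA day 5, by -0.998 (SE 0.19) and -1.59 (SE 0.19) at day 21, but 93% of its span lies in KLC1 and the sources used here do not give the strand setting of the counts. KLC1 itself had estimates of 0.18 and 0.08 at day 21. The RA day 10 call of XRCC3 (-0.59, adjusted p = 0.0426) ended in 12 of the 14 fits without 1 library.

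RAD51C was lower at day 21 of both treatments by -0.74 (SE 0.24, adjusted p = 0.0293, edgeR) and -0.82 (SE 0.24, adjusted p = 0.0181). These calls were thin: the RA call ended without either RA day 21 library or untreated replicate 1, and the BMP2 call without BMP2 day 21 replicate 1 or untreated replicate 1. RAD51B (1.41 to 4.37 CPM over the 14 libraries) and RAD51D (4.87 to 8.15 CPM) were called in no comparison with day 0. RAD51B had estimates of -0.001 to 0.71 and RAD51D of -0.34 to 0.23.

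Among the strand exchange genes, RAD54L, a motor that moves along chromatin during the search for homology, read 55.1 and 51.2 CPM untreated, 42.1 and 42.2 at RA day 5, 33.3 and 35.2 at RA day 10, and 15.2 and 13.2 at RA day 21. With BMP2 it read 35.0 and 23.5, 24.7 and 13.1, and 10.5 and 7.70. All 12 treated libraries lay below the untreated ones, and the fold change was -1.91 (SE 0.30, adjusted p = 0.000862, edgeR) at RA day 21 and -2.54 (SE 0.31, adjusted p = 0.000213) at BMP2 day 21. RAD54L shares 56.1% of its span with LRRC41, which was higher by 0.58 at BMP2 day 21 (adjusted p = 0.0194). RAD54B, its relative, was at -0.74 (SE 0.26, adjusted p = 0.0382) and -0.96 (SE 0.26, adjusted p = 0.0124) at day 21, and 62.8% of its span is shared with FSBP, which was at 0.32 and 0.18 and not called. The RA day 21 call of RAD54B ended in 10 of the 14 fits without 1 library, and its BMP2 day 21 call without untreated replicate 1 or BMP2 day 21 replicate 2. RAD52, which anneals strands, was called in no comparison with day 0 and read 28.6 and 29.6 CPM untreated, 40.8 and 36.5 at RA day 21, and 20.4 and 24.8 at BMP2 day 21.

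Of the genes that unhook crosslinks and process junctions, BLM had the largest fall of the 32 members at BMP2 day 21, and SLX4 was the only member called higher in a comparison with day 0. BLM read 101 and 101 CPM untreated, 98.3 and 117 at RA day 5, 49.0 and 61.6 at RA day 10, and 14.9 and 13.1 at RA day 21. Its BMP2 values were 31.4 and 29.6 at day 5, 23.3 and 11.6 at day 10, then 9.48 and 6.78 at day 21. Both BMP2 day 5 libraries lay well below both untreated and both RA day 5 libraries. Its fold change was 0.09 (SE 0.29, adjusted p = 0.889, edgeR) at RA day 5, -0.87 (SE 0.29, adjusted p = 0.0545) at RA day 10 and -2.85 (SE 0.31, adjusted p = 0.000159) at RA day 21. With BMP2 it was -1.73 (SE 0.30, adjusted p = 0.00264), -2.53 (SE 0.31, adjusted p = 0.000454) and -3.63 (SE 0.32, adjusted p = 6.86e-05). The 4 calls held in every fit without 1 library.

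SLX4, the scaffold that docks nucleases at the crosslink, read 23.1 and 22.9 CPM untreated, 52.8 and 47.0 at RA day 5, 37.0 and 37.7 at RA day 10, and 22.9 and 22.3 at RA day 21. With BMP2 it read 28.4 and 31.2 at day 5, 29.2 and 23.4 at day 10, then 12.8 and 19.9 at day 21. The RA day 5 and day 10 libraries were all above the untreated ones, and the RA day 21 libraries were again at the untreated level. The rise was 1.11 (SE 0.21, adjusted p = 0.0116, edgeR) at RA day 5 and 0.70 (SE 0.21, adjusted p = 0.0359) at RA day 10. The first call ended without either untreated library or RA day 5 replicate 1, with estimates of 1.03 to 1.12, and the second ended in 8 of the 14 fits. FAN1, the nuclease that binds ubiquitinated FANCD2, was called in no comparison with day 0 and had estimates of -0.43 to -0.17.

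Across the list, the number of the 6 comparisons with day 0 in which a member was called lower was 0 for 8 members (FANCF, RAD51B, RAD51D, RAD52, SLX4, NBN, RAD50 and FAN1), 1 for 3, 2 for 1, 3 for 11, 4 for 5, 5 for 3 and 6 for 1. By group mean, 14 members were highest in untreated cells and 15 at RA day 5, and 24 were lowest at BMP2 day 21. Neither set of counts was made over all genes tested, so they describe the list and do not set it apart. The ratio of highest to lowest group mean ran from 1.35 for FAN1 to 13.2 for BLM. Replicates differed by a median of 0.12 to 0.37 on the log2 scale over the 32 members in 6 groups and by 0.65 at BMP2 day 10.

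BMP2 day 10 was the group whose libraries stood apart. Replicate 1 was nearer to the BMP2 day 5 mean for 25 of the 32 members, and replicate 2 was nearer to the day 21 mean for 24. These counts were not made over all genes tested, so they do not set the members apart. Over all genes tested the 2 libraries correlated at 0.918, against 0.964 to 0.990 in the other groups. The summed proliferation markers of the 2 BMP2 day 10 libraries differed in the same sense (43.5 and 20.7% of the untreated mean), as did their embryonal carcinoma markers (966.8 and 194.9 CPM summed). The part of cell composition in this split was not tested. Without replicate 1 or 2 of that group the count of members lower against day 0 was 20 or 19, and without replicate 2 the calls of FANCA, BRIP1 and BARD1 ended (-0.88 to -0.72). Without replicate 1 the call of FANCB ended (-1.18).

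Late against early days within a treatment, 23 members were lower at RA day 21 than at RA day 5 (71.9%), against 14.8% of all genes tested lower and 13.9% higher. The member median was -1.005 and that of all genes 0.05. The largest changes were those of BLM (-2.94, SE 0.31), EXO1 (-2.44, SE 0.41), BRCA1 (-2.33, SE 0.34) and FANCD2 (-2.30, SE 0.40), and all 4 calls held without any 1 library. SLX4 also fell, by 1.14 on the log2 scale (SE 0.21, adjusted p = 0.00441, edgeR). The count was 13 and 10 without RA day 21 replicate 1 and 2, and 9 calls held in all 14 fits.

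In the BMP2 course, 17 members were lower at day 21 than at day 5 (53.1%), against 7.75% of all genes lower and 7.77% higher. The member median was -0.91 and that of all genes -0.004. FANCD2 (-2.03, SE 0.39), EXO1 (-2.00, SE 0.40), BLM (-1.91, SE 0.30) and BRIP1 (-1.89, SE 0.26) changed most. No call of this comparison was independent of single libraries: the count was 0 without BMP2 day 5 replicate 1 or BMP2 day 21 replicate 2, 8 without BMP2 day 21 replicate 1 and 10 without BMP2 day 5 replicate 2. The estimates for the 17 genes without the first 2 of these libraries still ran from -1.86 to -0.66.

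RA and BMP2 were compared directly on the same day. At day 5, 5 members were higher with RA (15.6%), against 5.97% of all genes tested higher and 6.25% lower. At day 10, 7 were higher with RA (21.9%), against 5.11% higher and 5.73% lower of all genes, and at day 21, 3 were (9.38%), against 5.99% and 6.07%. No member was lower with RA at any day under edgeR. At an unadjusted p under 0.05, 13, 18 and 11 members differed in either direction, and DESeq2 called 9, 12 and 7 members at the 3 days, of which 2 at day 21 were lower with RA. Fits of only the 4 libraries compared called 4, 0 and 7. The medians of the members were 0.54, 0.69 and 0.45, and those of all genes 0, -0.001 and 0.02.

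BLM differed most, by 1.82 at day 5 (SE 0.30, adjusted p = 0.00539, edgeR) and 1.66 at day 10 (SE 0.30, adjusted p = 0.00932), with both RA libraries above both BMP2 libraries on each day. At day 21 its difference was 0.78 (SE 0.29, adjusted p = 0.107). UBE2T was the only member higher with RA on all 3 days, by 1.07, 1.00 and 0.93 (SE 0.17 each, adjusted p = 0.00467, 0.00785 and 0.00952). The day 5 call of BLM held in every fit without 1 library. All 7 calls of day 10 ended without RA day 10 replicate 2, with estimates of 0.57 to 1.47. All 3 of day 21 ended without BMP2 day 21 replicate 2 or either RA day 21 library. Among the other day 5 calls, that of UBE2T ended without RA day 5 replicate 2, and those of RAD51C, XRCC3 and SLX4 each ended without either of RA day 5 replicate 2 and BMP2 day 5 replicate 2. The counts at the 3 days ran from 1 (without RA day 5 replicate 2), 0 (without RA day 10 replicate 2) and 0 up to 12, 16 and 9 (without BMP2 day 10 replicate 1).

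The remaining day 10 differences were XRCC2 at 1.60 (SE 0.32), BRCA1 at 1.24 (SE 0.33), BRIP1 at 1.10 (SE 0.25), RAD54B at 1.06 (SE 0.26) and RBBP8 at 0.83 (SE 0.23). At day 21 FANCL was higher with RA by 0.97 (SE 0.27, adjusted p = 0.0415, edgeR) and RAD52 by 0.77 (SE 0.19, adjusted p = 0.0305). Proliferation markers had medians in the same direction, of 0.74, 0.91 and 0.56 at days 5, 10 and 21. At these days 5, 9 and 1 of 20 were called higher with RA, where 5.97%, 5.11% and 5.99% of all genes tested were. The day 21 count was near the share of all genes. The part of proliferation in the members' differences was not tested.

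**Figure D4:**
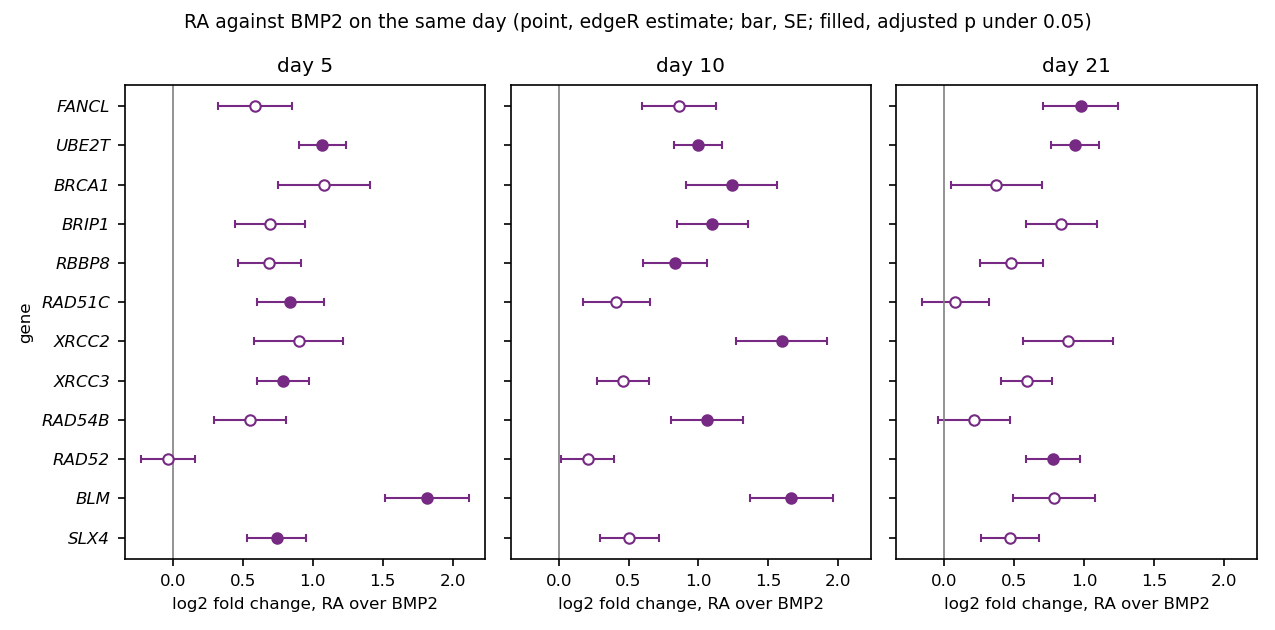
Difference between RA and BMP2 on the same day (horizontal axis, log2 fold change, positive where RA is higher) for the 12 members called on at least 1 day (vertical axis), at days 5, 10 and 21; points are edgeR estimates, bars their SE, and filled points have an adjusted p under 0.05. UBE2T is filled on all 3 days, and BLM has the largest values at days 5 and 10.

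Other genes of the same pathway, which are not among the 32, were also called lower late in both courses. Of 40 such genes 39 were tested, and 20 were lower and 4 higher at RA day 21 (21.1% and 23.4% of all genes tested), and 23 lower and 3 higher at BMP2 day 21 (22.1% and 25.0% of all genes tested). RAD51AP1, which stimulates strand pairing, was at -2.38 (SE 0.41) and -3.26 (SE 0.42), and DNA2, a resection nuclease, at -2.15 (SE 0.30) and -3.03 (SE 0.31). SWI5 was higher at both (1.504 and 1.25), as were MUS81, a junction nuclease (0.72 and 0.52), and FBH1, a helicase that opposes recombination (0.64 and 0.75). MUS81 was also called higher at RA day 5 (0.66, SE 0.18, adjusted p = 0.0497, edgeR) and at BMP2 day 5 (0.96, SE 0.18, adjusted p = 0.00389). The medians of the 39 genes were -0.51 and -0.70 at day 21.

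End joining, the route that ligates broken ends without a template, was measured beside them. Of 15 such genes 14 were tested, and 6 were lower and 1 higher at RA day 21 and 7 lower at BMP2 day 21, with medians of -0.71 and -0.79. XRCC5, a Ku subunit, was at -1.48 (SE 0.19) and -1.35 (SE 0.19), and POLQ, the polymerase of the microhomology route, at -1.42 (SE 0.30) and -2.43 (SE 0.31). POLL was higher at RA day 21 (0.77, SE 0.21). No test compared end joining with recombination genes. Of all genes tested, 21.1% were lower at RA day 21 and 22.1% at BMP2 day 21. Of 10 genes of damage signalling 7 were lower at day 21 of each treatment, among them the checkpoint kinase CHEK1 at -2.37 (SE 0.24) and -2.70 (SE 0.25). The medians of the 10 were -1.11 and -1.21, and 9 of the 10 estimates were below 0 at each. ATM went the other way (0.55 and 0.38) and was not called.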

How the data were processed

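Total RNA of 14 NT2 libraries in 7 groups of 2 was analysed. The deposited table of raw read counts and the authors' second table of RPKM (reads scaled to gene length and library total) cover the same 25952 genes. STAR, featureCounts, DESeq2 and build hg19 are named, without versions, per the submitters' processing notes; the sources used here give no strand setting. Between 66.0% and 73.5% of counts from 1 to 19 were even in each library, so some fragments may be counted for both reads of a pair. The length implied by the authors' RPKM was the whole gene span within 1% for 89.0% of 5814 genes with at least 1000 counts per library and a GENCODE v29 span, so RPKM entered alternatives only.

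Counts were fitted in edgeR 4.0.16 (R 4.3.3; TMM scaling, filterByExpr with a minimum count of 10, quasi-likelihood F test, Benjamini-Hochberg adjustment over 19142 genes) with 1 mean for each group, on all 14 libraries. The SE is the log2 fold change divided by the root of its F statistic. The script was first tested on simulated data. Alternatives were RLE scaling, no filter, DESeq2 1.42.0, a replicate block, only the 4 libraries compared, limma 3.58.1 on log2(RPKM + 1) and log2(RPKM + 0.1), and leaving out libraries; calls that ended were read for the members only. Symbols came from a gene name list (25214 identifiers) and GENCODE names (738). Promoters are RefSeq windows on GRCh38.p14. All 32 members may be named. Of every other list some genes are named as examples, and these are not always those with the largest called change. TUBB3, NEFL and SHLD3 were not analysed here. The members and all lists were chosen with earlier results of these data known.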

Additional observations from a re-analysis of the deposited data

Results flagged for a closer look

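A direct test of RA against BMP2 on the same day (edgeR quasi-likelihood contrast, Benjamini-Hochberg over 19142 genes) found 15 differences among the 32 members, each with RA higher; values are log2 fold changes. At day 5 they were UBE2T at 1.07, RAD51C at 0.84, XRCC3 at 0.79, BLM at 1.82 and SLX4 at 0.74. At day 10 they were UBE2T at 1.00, BRCA1 at 1.24, BRIP1 at 1.10, XRCC2 at 1.60, RAD54B at 1.06, BLM at 1.66 and RBBP8 at 0.83. At day 21 they were FANCL at 0.97, UBE2T at 0.93 and RAD52 at 0.77. For RAD52 neither treatment was called against untreated cells (0.41 with RA and -0.37 with BMP2 at day 21), and the 2 treatments lay on opposite sides of them. Of the 15, the BLM difference at day 5 was the only call that held in every fit without 1 library.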

How the results depend on the processing

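Each group holds 2 libraries, and their number limits the precision of every call. Over the 11 comparisons, no value of a called member reversed its sign under any alternative. Of 136 calls, RLE scaling and DESeq2 lost none, the replicate block 9, no filter 11 and fits of only the 4 libraries compared 30. Of the 110 calls whose genes passed the RPKM filter, limma lost 11 with a pseudocount of 1 and 6 with 0.1. Fits without both BMP2 day 10 libraries lost none of 109.

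The counts of members called that moved by over 1.5 times were as follows. RA day 5 against day 0 went from 2 to 1 with no filter, with the replicate block and with both limma fits, and to 5 with only the 4 libraries. RA day 10 went from 5 to 2 with the replicate block and limma (0.1), 9 with only the 4 libraries and 8 without both BMP2 day 10 libraries. BMP2 day 10 went from 20 to 3 with only the 4 libraries. RA against BMP2 went at day 5 from 5 to 9 with DESeq2, 3 with the replicate block, 10 with limma (1) and 12 without both BMP2 day 10 libraries. At day 10 it went from 7 to 12 with DESeq2, 0 with only the 4 libraries and 13 with limma (1). At day 21 it went from 3 to 7 with DESeq2, 7 with only the 4 libraries and 8 without both BMP2 day 10 libraries. RA day 21 against RA day 5 went from 23 to 15 with limma (1). The cause was not tested.

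Leaving out each library in turn gave 0 to 3 at RA day 5, 1 to 9 at RA day 10, 15 to 22 at RA day 21, 3 to 12 at BMP2 day 5, 15 to 20 at BMP2 day 10, 20 to 25 at BMP2 day 21, 1 to 12, 0 to 16 and 0 to 9 for RA against BMP2 at days 5, 10 and 21, 10 to 24 for RA day 21 against day 5 and 0 to 20 for BMP2 day 21 against day 5. A library left alone in its group was assumed to vary like the others.

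Replicate numbers here are those of the sample titles, and the sample descriptions number the RA day 21 libraries differently. The title numbers did not pair the libraries: over 21 pairs of groups, deviations of same-numbered libraries correlated at -0.34 to 0.15, with 3 over 0.1. The replicate block moved no other count by over 1.5 times.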
